A study of Mus musculus with 6 samples.

Results

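The voltage-gated calcium channel subunit genes were described in whole mouse hearts at embryonic day E13.5. The 10 genes were Cacna1c, Cacna1d, Cacna1g, Cacna1h, Cacnb2, Cacna2d1, Cacna2d2, Cacng4, Cacng6 and Cacng7, of 46983 genes in the count table, and all of them were found by their symbols. The family was chosen by the fold change of Cacng6 in the counts of these same groups, so the differences of the 10 genes are given as a description, without a test. The study asked what deleting the transcription factor gene Wt1 in the cardiac troponin T lineage changes in the embryonic heart. RNA was sequenced from 3 mutant hearts (replicates 1, 5 and 10) and 3 wild type hearts (replicates 2, 3 and 5), each library made from a single heart. All 6 hearts came from C57BL/6 x DBA/2 embryos. The mutant genotype was TnnT2Cre;Wt1flox, with both Wt1 alleles floxed according to the study's methods. The hearts labelled wild type also had both Wt1 alleles floxed and lacked the Cre, so the floxed alleles were shared by both groups and the transgene was not. Cre was driven by the Tnnt2 promoter, which is active in the cardiomyocyte lineage and, according to the methods, in part of the proepicardial cells. A whole heart also holds cells that never carried active Cre.

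A voltage-gated calcium channel opens when the membrane depolarises and lets calcium into the cell. The pore is formed by an α1 subunit, which in L-type channels is accompanied by an intracellular β subunit and an α2δ subunit that help the channel reach the membrane and set its gating. L-type current starts contraction in cardiomyocytes, T-type current is prominent in the embryonic heart and in pacemaker tissue, and the γ subunits are membrane proteins of which several modulate channels.

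Library totals ranged from 44244665 to 56373393 counts. The 10 genes together held 0.0561% of all counts, and all 10 passed the filter on low counts, as did 17473 genes in all. Wt1 itself stood at 20.9, 17.3 and 10.2 FPKM in wild type replicates 2, 3 and 5, and at 9.29, 17.2 and 17.4 FPKM in mutant replicates 1, 5 and 10. FPKM are counts scaled to the length of the gene and the total of the library. The groups overlapped, so the level of Wt1 in the whole heart does not check the labels. Cardiomyocyte markers were abundant in every heart, with 8 of 8 markers detected and summed levels of 17870 to 20420 FPKM in wild type and 19500 to 20510 FPKM in mutant hearts. Wild type replicate 5 stood apart in a trend with gene length. The rank correlation across 11795 genes between length and deviation from the gene's mean was -0.557 in that heart and between -0.0623 and 0.465 in the others. In that same heart 7 of the 10 genes were below their own mean over the 6 hearts. Xist was high in wild type replicate 2 and mutant replicates 5 and 10 (299 to 391 CPM). Xist was at most 0.209 CPM in the others, so the sexes were mixed in both groups. CPM are counts scaled to the library total and to a normalisation factor of the library (TMM), which FPKM leave out.

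Of the 10 genes, 3 carry the differences described here, all of them γ subunit genes, and 2 of them lie in the same gene cluster. Cacng7 (ENSMUSG00000069806), Cacng8 and Cacng6 (ENSMUSG00000078815) follow one another on the plus strand of mouse chromosome 7. In the GRCm38 build with the GENCODE M21 annotation, Cacng7 spans 3332955 to 3368221 and Cacng6 spans 3424195 to 3435667, with a gap of 55973 bases that holds Cacng8. Cacng4 lies on chromosome 11 from 107732357 to 107794557 on the minus strand. The 60-base coding window of Cacng6 with the most in-frame matches to Cacng7 and Cacng4, without gaps, is printed from the GENCODE transcripts, 5′ to 3′. Below it stand the Cacng7 and Cacng4 windows that each match it best. Both were placed against Cacng6 and not against each other, so bases that Cacng7 and Cacng4 share can lie at different positions. Capitals mark positions equal in all 3 windows. The placement took the highest number of matches, so it need not pair corresponding stretches of the genes, for Cacng7 and Cacng6 as well. How many matches such a search gives for unrelated sequences was not tested. The windows are chr7:3424821-3424880 in exon 1 of 4 for Cacng6, chr7:3336645-3336704 in exon 2 of 6 for Cacng7, and chr11:107794333-107794392 in exon 1 of 4 for Cacng4.
Cacng6: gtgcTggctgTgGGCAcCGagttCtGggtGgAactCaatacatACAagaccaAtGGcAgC
Cacng7: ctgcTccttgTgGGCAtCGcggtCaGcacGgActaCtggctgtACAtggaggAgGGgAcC
Cacng4: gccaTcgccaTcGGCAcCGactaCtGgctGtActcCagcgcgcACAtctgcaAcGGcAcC
Of the 60 positions, 21 were equal in all 3 windows as placed, and 32 in Cacng7 and 35 in Cacng4 were equal to Cacng6. Over the whole coding sequence, the longest identical run was 9 bases between Cacng6 and Cacng7, 9 between Cacng6 and Cacng4 and 15 between Cacng4 and Cacng7. No exon of the 3 genes overlapped an exon of another gene.

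Cacng6, which encodes the γ6 subunit, was higher in the mutant hearts. Its level was 13.8, 11.2 and 19.6 FPKM in wild type replicates 2, 3 and 5, and 25.3, 29.4 and 30.05 FPKM in mutant replicates 1, 5 and 10. Every mutant heart was above every wild type heart, and wild type replicate 5 was the highest of its group. The counts behind these levels ran from 902 to 1235 in wild type and from 1836 to 2271 in mutant hearts. Mean levels were 14.9 ± 4.29 FPKM in wild type and 28.2 ± 2.59 FPKM in mutant hearts (SD, n = 3 each). The edgeR fit over all genes gave 1.94-fold, a log2 fold change of 0.95 with a standard error of 0.21. Leaving out each heart in turn moved this log2 fold change between 0.79 when wild type replicate 3 was dropped and 1.22 when wild type replicate 5 was dropped. In RNA of a whole heart, a change in the number of cells that express a gene and a change in RNA per cell cannot be told apart.

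Cacng7, the γ7 subunit gene on the far side of Cacng8 from Cacng6, went the other way. It was measured at 8.96, 9.87 and 9.52 FPKM in wild type replicates 2, 3 and 5, and at 7.45, 4.45 and 3.74 FPKM in mutant replicates 1, 5 and 10. The wild type hearts were close together, the mutant hearts were spread out below them, and the groups did not overlap. Mean levels were 9.45 ± 0.458 and 5.21 ± 1.97 FPKM (SD, n = 3 each), with a log2 fold change of -0.84 (standard error 0.23, 0.559-fold). Without mutant replicate 1 the log2 fold change was -1.16, and without mutant replicate 10 it was -0.67.

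Cacng4, encoding the γ4 subunit, had the lowest level of the 10 genes. The 6 values were 1.96, 2.77 and 2.01 FPKM in wild type replicates 2, 3 and 5, and 1.59, 1.83 and 1.11 FPKM in mutant replicates 1, 5 and 10. All mutant hearts were below all wild type hearts, but mutant replicate 5 came within a small margin of wild type replicate 2. The libraries held 116 to 306 counts of this gene. Mean levels were 2.24 ± 0.455 and 1.51 ± 0.363 FPKM (SD, n = 3 each), a log2 fold change of -0.55 (standard error 0.24) that came to -0.37 when wild type replicate 3 was dropped. Cacng8, which lies between Cacng7 and Cacng6, stood at 0.834 ± 0.138 FPKM in wild type and 0.614 ± 0.0879 FPKM in mutant hearts (SD, n = 3 each). Its groups were apart by a small margin in FPKM (lowest wild type heart 0.680, highest mutant heart 0.667) and overlapped in CPM, the scale used for the counts over all genes (log2 fold change -0.41, standard error 0.30, edgeR adjusted p = 0.981).

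The make-up of the γ subunit transcripts differed accordingly. Of the summed FPKM of Cacng4, Cacng6 and Cacng7, Cacng6 held 55.8%, 47.1% and 63.0% in wild type replicates 2, 3 and 5, and 73.7%, 82.4% and 86.1% in mutant replicates 1, 5 and 10. The means were 55.3% ± 7.96 and 80.7% ± 6.39 (SD, n = 3 each), and the groups did not overlap. Cacng7 held 36.1% ± 5.38 of the sum in wild type and 14.96% ± 5.91 in mutant hearts. The Cacng6 to Cacng7 ratio of FPKM was 1.54, 1.14 and 2.06 in wild type replicates 2, 3 and 5, against 3.39, 6.61 and 8.04 in mutant replicates 1, 5 and 10. The difference of the log2 ratios was 1.88, which does not depend on the gene lengths or on the scaling of the libraries. That the groups do not overlap in these shares and ratios follows from the levels above. There Cacng6 was higher and Cacng4 and Cacng7 were lower, each without overlap. The shares and ratios were chosen with those levels known and were not tested.

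**Figure D1:**
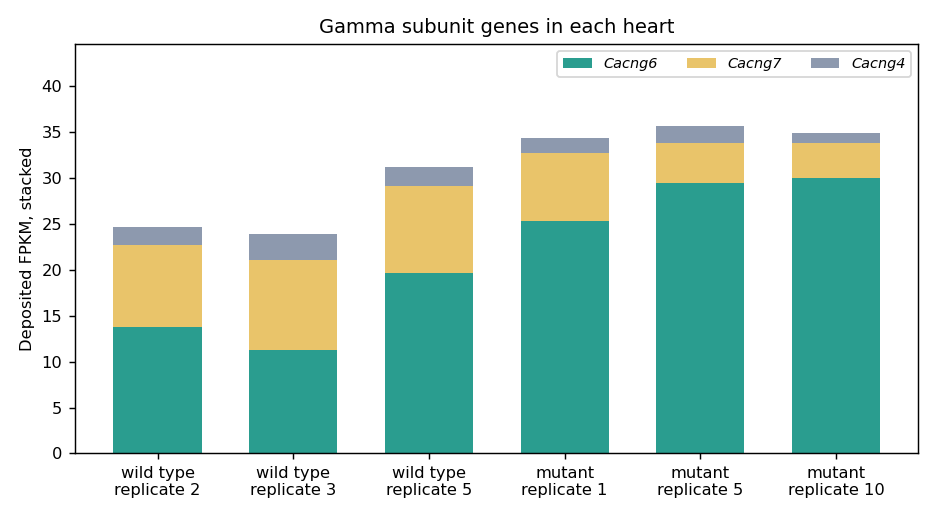
Stacked bars give the deposited FPKM of Cacng6, Cacng7 and Cacng4 in each of the 6 hearts, with wild type hearts at the left and mutant hearts at the right. The Cacng6 part runs from 11.2 to 19.6 FPKM in wild type and from 25.3 to 30.05 FPKM in mutant hearts, while the Cacng7 part is 8.96 to 9.87 FPKM in wild type and 3.74 to 7.45 FPKM in mutant hearts.

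Among the pore subunits, Cacna1c and Cacna1d form L-type channels. Cacna1c is the main L-type pore of working myocardium and lies on chromosome 6 from 118587240 to 119196418 on the minus strand. Cacna1d, an L-type pore known from the sinoatrial node, lies on chromosome 14 from 30039939 to 30491455 on the minus strand. The longest run of identical coding bases among the compared pairs of members belonged to these 2 genes, at 43 bases, and both copies are in exon 28. The run is shorter than the reads given in the study's methods, before trimming. The windows chr6:118654346-118654428 and chr14:30099134-30099216 are printed from the GENCODE transcripts in the direction of the gene, with the identical run in capitals.
Cacna1c: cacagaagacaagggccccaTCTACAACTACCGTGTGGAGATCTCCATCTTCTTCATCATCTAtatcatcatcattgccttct
Cacna1d: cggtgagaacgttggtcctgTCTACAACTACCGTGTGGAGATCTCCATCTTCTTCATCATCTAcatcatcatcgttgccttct
The T-type pair, Cacna1g and Cacna1h, shared a run of at most 41 bases. No pair compared had an identical stretch of 50 coding bases.

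Cacna1c was measured at 19.5, 19.1 and 12.9 FPKM in wild type replicates 2, 3 and 5, and at 20.4, 20.7 and 17.4 FPKM in mutant replicates 1, 5 and 10. The groups overlapped, and the lowest value was that of wild type replicate 5. The log2 fold change was 0.21 (standard error 0.16) and came to 0.05 without that heart. Cacna1d was measured at 2.61, 2.71 and 2.19 FPKM in the wild type and at 3.07, 1.95 and 1.58 FPKM in the mutant hearts, in the same order of replicates. Mutant replicate 1 was the highest of all 6 hearts and the other mutant hearts were the lowest, so that the log2 fold change of -0.17 (standard error 0.21) moved from -0.45 without mutant replicate 1 to 0.0015 without mutant replicate 10. Cacna1c held 87.1% of the L-type FPKM in wild type and 90.0% in mutant hearts, with overlapping groups. This share rested on the length used. With counts divided by the length of the longest coding transcript it was 76.4% in wild type and 81.3% in mutant hearts. With the length of all exons joined it was 74.5% and 79.7%, and the groups overlapped with both lengths.

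Cacna1g and Cacna1h encode T-type pores, which open at more negative potentials than L-type pores. Cacna1h lies on chromosome 17 from 25374285 to 25433783 and Cacna1g on chromosome 11 from 94408391 to 94474198, both on the minus strand. Cacna1h stood at 50.1, 41.9 and 33.3 FPKM in wild type replicates 2, 3 and 5, and at 43.5, 37.5 and 36.3 FPKM in mutant replicates 1, 5 and 10. The mutant hearts lay within the wild type range, and the log2 fold change of -0.07 (standard error 0.15) changed sign to 0.08 with wild type replicate 2 left out. Cacna1g stood at 4.08, 6.43 and 5.76 FPKM in wild type and at 4.41, 4.95 and 3.18 FPKM in mutant hearts. The groups overlapped through wild type replicate 2, with a log2 fold change of -0.35 (standard error 0.20) that came to -0.21 without mutant replicate 10 and -0.52 with wild type replicate 2 left out.

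Within single hearts, the T-type share of the pore transcripts was lower in the mutant hearts. The T-type genes made up 71.0%, 68.9% and 72.2% of the FPKM of the 4 pore genes in wild type replicates 2, 3 and 5, and 67.1%, 65.2% and 67.6% in mutant replicates 1, 5 and 10. All mutant hearts were lower than all wild type hearts, by a few percentage points. With counts divided by the length of the longest coding transcript the shares were 64.4% ± 1.72 and 60.2% ± 0.995 (SD, n = 3 each), and the groups again did not overlap. The Cacna1h to Cacna1c ratio of FPKM was 2.57, 2.19 and 2.59 in wild type and 2.13, 1.81 and 2.09 in mutant hearts, a difference of -0.29 in log2. These shares and ratios were chosen with the values of the genes known and were not tested.

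Cacnb2 encodes the main β subunit of cardiac L-type channels and lies on chromosome 2 from 14603088 to 14987908 on the plus strand. Its levels were 17.7, 16.5 and 12.8 FPKM in wild type replicates 2, 3 and 5, and 16.9, 16.5 and 16.2 FPKM in mutant replicates 1, 5 and 10. The mutant hearts were nearly equal and lay inside the wild type range. The log2 fold change was 0.11 (standard error 0.13) and became -0.0076 without wild type replicate 5. Cacnb2 per Cacna1c also overlapped between groups, with a log2 difference of -0.11.

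The α2δ subunits are extracellular proteins that raise the number of channels at the membrane. Cacna2d1 lies on chromosome 5 from 15934691 to 16374511 and Cacna2d2 on chromosome 9 from 107399612 to 107529343, both on the plus strand. Cacna2d1 stood at 19.8, 20.8 and 16.3 FPKM in wild type replicates 2, 3 and 5, and at 20.1, 24.5 and 20.04 FPKM in mutant replicates 1, 5 and 10. The groups overlapped, with a log2 fold change of 0.21 (standard error 0.12) that came to 0.11 without mutant replicate 5. Cacna2d2 stood at 45.9, 42.2 and 25.5 FPKM in wild type and at 32.1, 30.4 and 23.4 FPKM in mutant hearts. Wild type replicate 5 fell among the mutant hearts, whereas the other wild type hearts were above all of them. The log2 fold change was -0.38 (standard error 0.21) with all hearts, -0.59 when wild type replicate 5 was left out and -0.21 without replicate 2 of that group. Cacna2d2 made up 65.9% ± 4.56 of the α2δ FPKM in wild type and 56.9% ± 4.01 in mutant hearts (SD, n = 3 each), and the groups overlapped.

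**Figure D2:**
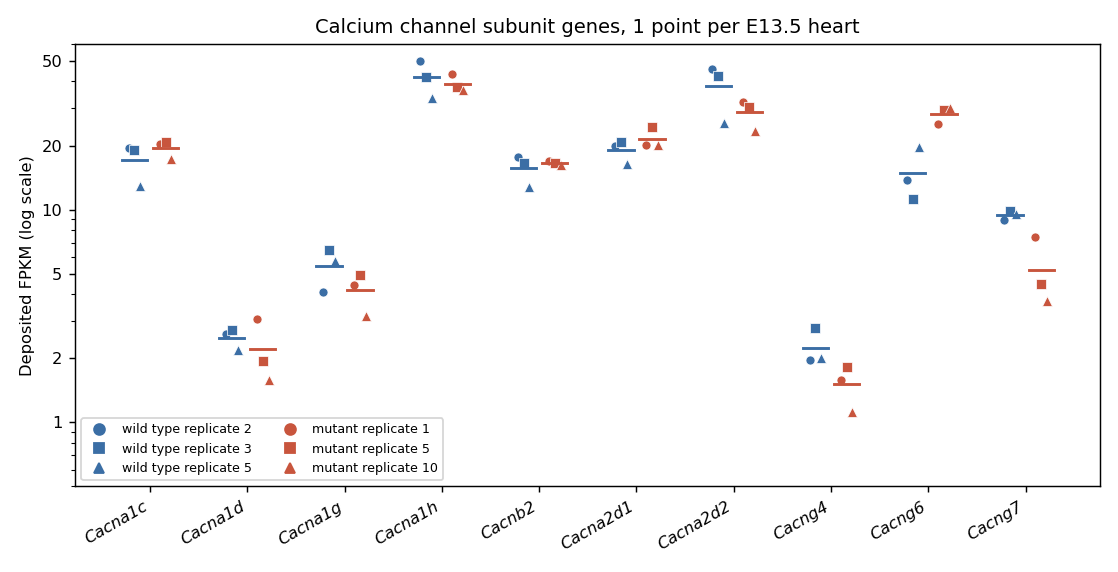
Each point is the deposited FPKM of a gene in 1 heart on a log axis, with wild type hearts in blue, mutant hearts in red and the group means as short lines. Only for Cacng4, Cacng6 and Cacng7 do the points of the groups not overlap, and wild type replicate 5 (blue triangle) is the lowest wild type heart for 6 of the other 7 genes.

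By counts, 4 of the 10 genes had a log2 fold change above 0 and 6 below, where 49.8% of all tested genes were above 0. The median over the 10 genes was -0.12, and over all 17473 tested genes it was -0.0010. The groups did not overlap for 3 of the 10 genes, and for 11.2% of all tested genes. In the mutant hearts 1 of them was higher (Cacng6), as were 6.61% of all tested genes, and 2 were lower (Cacng4 and Cacng7), as were 4.59%. Without wild type replicate 5 this became 4 of the 10 genes, with Cacna2d2 added as lower, against 30.2% of all tested genes. An absolute log2 fold change of 0.5 or more was reached by 3 of the 10 genes and by 11.9% of all genes. The quasi-likelihood test of edgeR called 0 of the 10 genes and 0% of all genes at an adjusted p under 0.05. At an unadjusted p under 0.05 edgeR called 3 of the 10 genes and 5.73% of all genes. DESeq2 called 1 of the 10 genes at an adjusted p under 0.05, Cacng6, and 0.66% of all genes. As the contrast itself chose the family, these counts describe the genes and support nothing.

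**Figure D3:**
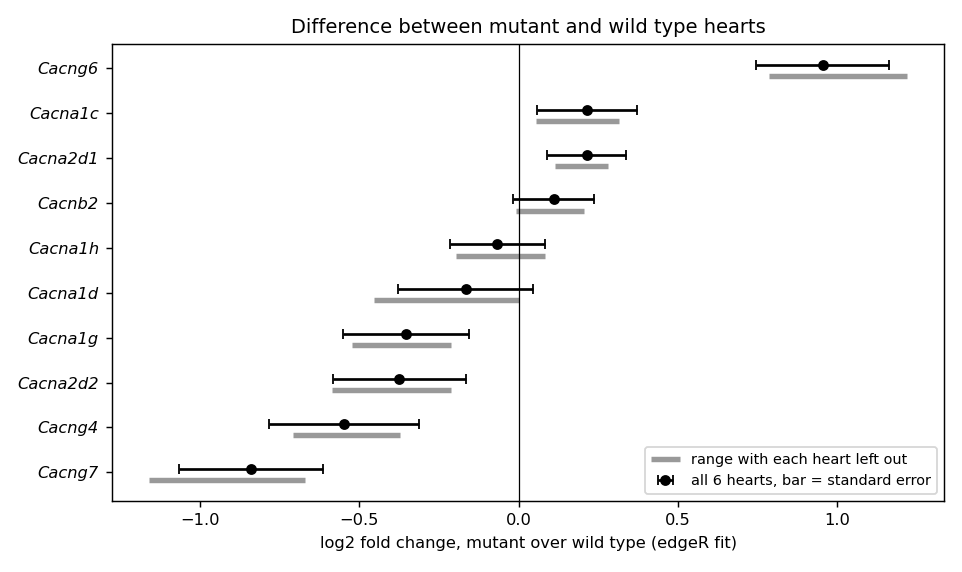
Black points give the log2 fold change of each gene, mutant over wild type, from the edgeR fit, with bars of 1 standard error, and grey bars give the range with each heart left out in turn. Cacng6 lies at 0.95 and Cacng7 at -0.84, and the grey bars of Cacna1d, Cacna1h and Cacnb2 reach across 0.

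The order of levels was read from the deposited FPKM, which are per length. Over the 6 hearts Cacna1h was highest at 40.4 ± 6.01 FPKM (SD, n = 6), followed by Cacna2d2 at 33.3 ± 9.03, Cacng6 at 21.6 ± 7.98, Cacna2d1 at 20.3 ± 2.62, Cacna1c at 18.3 ± 2.93 and Cacnb2 at 16.1 ± 1.70 FPKM. The lower part held Cacng7 at 7.33 ± 2.65, Cacna1g at 4.80 ± 1.18, Cacna1d at 2.35 ± 0.545 and Cacng4 at 1.88 ± 0.545 FPKM. The ranges of neighbours overlapped in this order except between Cacnb2 and Cacng7 and between Cacna1g and Cacna1d. Cacng6 was above Cacna2d1 in 4 of 6 hearts, so these neighbours had no fixed order. Its place was 6 by the wild type mean and 3 by the mutant mean.

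The place of Cacna1h rested on the length used. The length behind its deposited FPKM was 3119 bases, and its longest coding transcript is 8230 bases. For 8 of the 10 genes the length in the deposited FPKM was within 1 base of the mean length of all annotated transcripts, short fragments included. The exceptions were Cacna1c, at 6452 bases against a mean of 6620.5, and Cacna1d, at 8867 bases against a mean of 4978.8. Per kilobase of the longest coding transcript, Cacna2d2 came first at 20.1, then Cacng6 at 15.5 and Cacna1h at 15.3, on the same scale as FPKM. Per kilobase of all exons joined, Cacng6 came first at 15.5, before Cacna2d2 at 14.7 and Cacna1h at 12.9. Cacng4 was lowest with all of these lengths. Comparisons of 1 gene between hearts do not use the length.

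**Figure D4:**
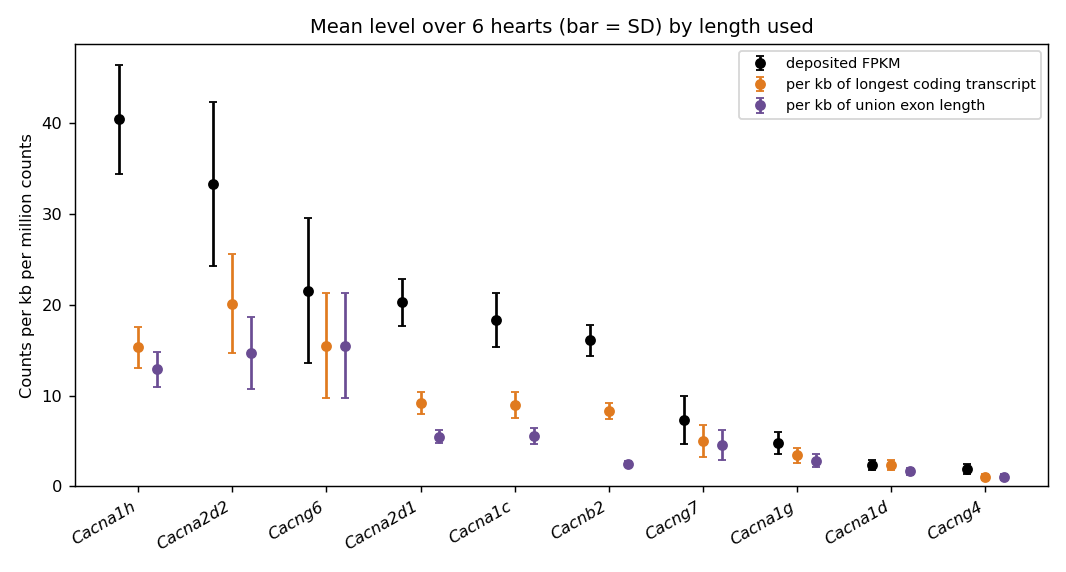
Points give the mean over the 6 hearts, with bars of 1 SD, as counts per kilobase scaled by the library total, with each of 3 lengths: that of the deposited FPKM, the longest coding transcript and all exons joined. Cacna1h drops from 40.4 to 15.3 and 12.9, and Cacng6 drops from 21.6 to 15.5 with both other lengths.

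The genes with the pattern over the 6 hearts most like that of Cacng6 were sought among 11794 genes, as the root mean square difference of the log2 CPM deviations from each gene's mean. Kcnab1, an auxiliary subunit of voltage-gated potassium channels, was nearest at 0.121, where the median gene was at 0.569. It was measured at 2.98, 2.00 and 4.14 CPM in wild type replicates 2, 3 and 5, and at 5.33, 7.44 and 8.39 CPM in mutant replicates 1, 5 and 10. Like Cacng6, it was highest in mutant replicate 10 and lowest in wild type replicate 3. Pf4, a platelet chemokine, followed at 0.157, C1qa, a complement component made by macrophages, at 0.199, the membrane protein gene Mal at 0.218 and the leukocyte tetraspanin Cd53 at 0.219. All 5 were nearest over the same 6 hearts and both groups, so any gene with a like difference between groups scores well.

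The summed levels of 4 marker lists of other cell types also did not overlap between the groups. The macrophage list, with 6 of 7 genes higher, summed to 69.7 to 113.9 FPKM in wild type and 128 to 147 FPKM in mutant hearts. The megakaryocyte and platelet list, with 6 of 6 genes higher, summed to 29.7 to 44.3 and 49.25 to 70.4 FPKM. The fibroblast list, with 4 of 6 genes higher, summed to 689 to 1017 and 1032 to 1566 FPKM. Within it only the collagen genes Col1a1 and Col1a2 were higher without overlap, at 323 ± 103 and 245 ± 59.8 FPKM in wild type and 608 ± 159 and 404 ± 101 FPKM in mutant hearts (SD, n = 3 each). Tcf21, a transcription factor of the fibroblast lineage, was lower without overlap, at 42.3 ± 5.49 and 19.4 ± 3.63 FPKM (log2 fold change -1.10, edgeR adjusted p = 0.113, DESeq2 adjusted p = 1.66e-07), and Pdgfra had a log2 fold change of -0.38. The summed levels of these lists had the direction of Cacng6, and wild type replicate 5 was the highest wild type heart for Cacng6, the macrophage list and the platelet list, but the lowest for fibroblasts. In the direction of Cacng7 and Cacng4, the list for sinus venosus and node, with 5 of 6 genes lower, summed to 87.9 to 89.9 FPKM in wild type and 58.0 to 63.7 FPKM in mutant hearts. Summed levels overlapped between groups for cardiomyocyte, atrial, ventricular, epicardial, endothelial, erythroid, neuron, glia, skeletal muscle, smooth muscle and foregut markers. Such sums rest mostly on the most abundant genes. By gene, 6 of 7 atrial and all 6 tested skeletal muscle markers had a log2 fold change below 0. All 6 ventricular and all 6 endothelial markers were above 0, as were 49.8% of all tested genes. The remaining lists with overlapping sums held genes of both directions. No marker of any list was at 0 in all hearts, though 7 of 10 neuron, 7 of 10 skeletal muscle, 4 of 6 glia and 5 of 6 foregut markers had a mean under 1 FPKM. The part of these cell types in the differences of the calcium channel genes was not tested.

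**Figure D5:**
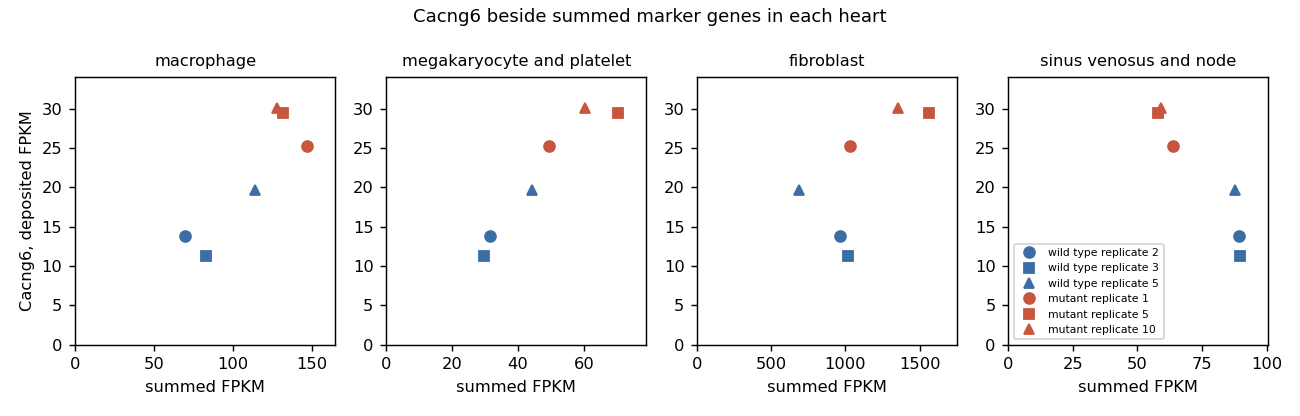
Each point is 1 heart, with the deposited FPKM of Cacng6 on the vertical axis and the summed FPKM of a marker list on the horizontal axis, for macrophage, megakaryocyte and platelet, fibroblast, and sinus venosus and node markers. Mutant hearts (red) lie to the right of wild type hearts (blue) in the first 3 panels and to the left in the last, where the sums are 58.0 to 63.7 against 87.9 to 89.9 FPKM.

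The levels of the other calcium channel subunit genes ran from 0 counts to values above those of some of the 10 genes. Of 16 listed genes 9 passed the filter, 3 with a log2 fold change above 0 (49.8% of all tested genes were) and 6 below. Their median was -0.16. With edgeR, 0 of the 9 passed at an adjusted p under 0.05 and 0 at an unadjusted p under 0.05 (5.73% of all genes did). DESeq2 called 0 of them and 0.66% of all genes. Cacnb3, a β subunit gene known from brain, had the highest level of them, at 10.2 ± 0.771 FPKM in wild type and 8.98 ± 0.375 FPKM in mutant hearts (SD, n = 3 each). The groups of Cacnb3 did not overlap, with a log2 difference of -0.16 (standard error 0.10, edgeR adjusted p = 0.966). In CPM this held for 1 of the 9 genes, and for 11.2% of all tested genes. Cacnb1, the skeletal muscle β subunit gene, stood at 5.40 ± 1.67 and 4.10 ± 0.454 FPKM and overlapped between groups, as did the neuronal pore gene Cacna1a at 3.85 ± 0.123 and 3.83 ± 0.290 FPKM. The neuronal pore genes Cacna1b and Cacna1e, the skeletal muscle pore gene Cacna1s, the β subunit gene Cacnb4 and the α2δ gene Cacna2d3 had group means of 0.0934 to 0.271 FPKM. Cacna1f, Cacna1i, Cacna2d4, Cacng1, Cacng2, Cacng3 and Cacng5 did not pass the filter, and Cacng2 had 0 counts in every heart.

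Of 30 listed regulators of calcium channels, all passed the filter, 21 with a log2 fold change above 0 (49.8% of all tested genes were) and 9 below, with a median of 0.07. None passed at an adjusted p under 0.05 with edgeR or DESeq2, and edgeR called 3 at an unadjusted p under 0.05, as it did 5.73% of all genes. Rem1, a small GTPase of the RGK group that binds β subunits and lowers L-type current, stood at 7.23, 8.26 and 7.91 FPKM in wild type replicates 2, 3 and 5, and at 5.51, 5.002 and 5.38 FPKM in mutant replicates 1, 5 and 10. The groups did not overlap, with a log2 fold change of -0.53 (standard error 0.14, edgeR adjusted p = 0.519). Those of Stac2 and Camk2b did not overlap either. In CPM, 4 of the 30 regulators were higher without overlap (6.61% of all tested genes were) and 2 were lower (4.59%). Stac2, an adaptor that binds L-type channels, stood at 1.87 ± 0.269 and 1.20 ± 0.240 FPKM (log2 fold change -0.60, standard error 0.24, edgeR adjusted p = 0.831). Camk2b, a calmodulin-dependent kinase subunit, stood at 2.13 ± 0.349 and 2.84 ± 0.264 FPKM (log2 fold change 0.45, standard error 0.18, edgeR adjusted p = 0.843).

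Downstream of calcium entry, 12 of 12 listed genes of excitation-contraction coupling passed the filter. Of these 10 had a log2 fold change above 0, against 49.8% of all tested genes, and 2 below. Their median was 0.18 and came to 0.34 with wild type replicate 2 left out. In CPM 4 did not overlap between groups, all higher in the mutant hearts, against 6.61% of all tested genes. With edgeR 0 passed at an adjusted p under 0.05 and 3 at an unadjusted p under 0.05 (5.73% of all genes), while DESeq2 called 1, Casq2, and 0.66% of all genes. Casq2, the calcium-binding protein of the sarcoplasmic reticulum, stood at 100.3, 109 and 148 FPKM in wild type replicates 2, 3 and 5, and at 158, 292 and 195 FPKM in mutant replicates 1, 5 and 10. The log2 fold change of Casq2 was 0.88 (standard error 0.25, edgeR adjusted p = 0.585), and wild type replicate 5 was again the wild type heart nearest to the mutants. Trdn, which anchors calsequestrin to the release channel, stood at 16.1 ± 1.26 and 20.5 ± 2.11 FPKM (log2 fold change 0.38, standard error 0.10, edgeR adjusted p = 0.578). Pln, the inhibitor of the reticulum's calcium pump, stood at 349.9 ± 48.7 and 459 ± 30.6 FPKM (log2 fold change 0.42, standard error 0.15, edgeR adjusted p = 0.765).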

How the data were processed

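Total RNA of whole hearts was sequenced as paired-end libraries. According to the study's methods, the authors trimmed reads, aligned them to mm10 with STAR and counted unique reads per gene with featureCounts; the submitters' processing notes name HTSeq and DESeq2. Whether strand was used in counting is not given in the sources used here. Raw counts and FPKM per gene were deposited. The deposited FPKM equal the count divided by a fixed length and the library total.

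Genes were filtered with filterByExpr (minimum count 10), scaled by TMM and fitted with edgeR 4.0.16 (quasi-likelihood, group as the only term, n = 3 each, Benjamini-Hochberg over 17473 genes). DESeq2 1.42.0, limma 3.58.1 on voom weights and on log2(FPKM + 1) or log2(FPKM + 0.1), other filters, a length correction, an Xist covariate and leaving out each heart were alternatives. R was version 4.3.3. The fit was tested on simulated counts with no trend with gene length and no outlying heart. That run therefore does not bear on the pattern of wild type replicate 5. No column of a sample was left unmapped.

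Named in the text were all 10 genes, every other subunit gene past the filter, the 3 regulators and 3 coupling genes with the smallest p, and the 5 genes nearest to Cacng6 with a mean log2 CPM over 2. Other genes were named by role. The members and lists were chosen with earlier results of these data known. The 60-base and 83-base windows come from GENCODE M21. Opposite-strand exons of other genes overlapped 4.67% of Cacna1d, 1.62% of Cacna1h, 7.32% of Cacnb2 and 1.03% of Cacna2d2 exon bases.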

Additional observations from a re-analysis of the deposited data

How the results depend on the processing

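The number of genes past an adjusted p of 0.05, 0 with edgeR, was 132 with DESeq2, 34 with no filter on low counts, 6 with the length trend removed, 41 with the length trend removed and without wild type replicate 5, and 0 to 44 with each heart left out. At an adjusted p of 0.1 it was 6. Cacng6 was among them with DESeq2 and in both settings that left out wild type replicate 5 (44 and 41 genes). As its fold change in these same groups chose the family, these calls describe Cacng6 and support nothing. The excitation-contraction list had 1 call with DESeq2, and its median of 0.18 became 0.34 without wild type replicate 2. The median of the other subunit genes, -0.16, became -0.26 without mutant replicate 1, -0.29 without mutant replicate 5, -0.28 with a minimum of 1 CPM in 3 hearts and -0.26 with the length trend removed. The regulators' median of 0.07 became 0.03 with the length trend removed and without wild type replicate 5. The order of levels changed at 7 positions per kilobase of all exons joined, at 3 per kilobase of the longest coding transcript, and at 0 to 2 with each heart left out (2 without mutant replicate 10). The log2 fold changes kept their sign under 19 alternatives for 7 genes; the sign changed once for Cacna1d (0.0015 without mutant replicate 10), once for Cacna1h (0.08 without wild type replicate 2) and in 2 alternatives for Cacnb2 (-0.0076 without wild type replicate 5 and -0.0051 with the length trend removed as well). The median of the 10 genes ranged from -0.25 without mutant replicate 1 to -0.02 without mutant replicate 10. The cause of these changes was not tested. The levels per kilobase of other lengths, the removal of the length trend together with wild type replicate 5, and the count of groups that do not overlap without that heart were added after the data were seen. No paired analysis was run. The replicate numbers come from the sample titles, and the sources used here do not give litters or pairs of hearts.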
